A study of Mus musculus with 12 samples.

Results

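The 39 genes described here mark the collagen-making cells of the liver or build its matrix: markers of hepatic stellate cells and fibroblasts, collagens, and the proteoglycans, fibre proteins and crosslinking enzymes laid down with them. They were chosen by name, and each of the 39 was found by its Ensembl identifier among the 35709 genes measured. The 6 markers of resting (quiescent) stellate cells, Lrat, Reln, Hand2, Ecm1, Lhx2 and Colec11, are kept apart from the other 33, which are further markers, activation genes and matrix genes.

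RNA-seq was made from primary hepatocytes of C57BL/6J mice, all male and 8 to 10 weeks old, isolated by Liberase perfusion, differential centrifugation and a Percoll gradient. Alb-Cre mice, which carry Cre recombinase under the albumin promoter, were the controls, and mice labelled Alb-R3 have the receptor gene Fgfr3 deleted in hepatocytes by the same Cre, so the deletion was not aimed at stellate cells. Each genotype received either olive oil or, in olive oil, 1 intraperitoneal dose of carbon tetrachloride (CCl4) of 0.4 mg per g of mouse, and cells were taken 48 h later, which gave 4 groups of 3 libraries. The labels do not say that the 3 libraries of a group came from separate mice, so p-values measure the spread between these libraries, which may be technical.

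Hepatic stellate cells lie between the hepatocytes and the sinusoidal endothelium, where they store retinyl esters while quiescent. After liver injury they can become contractile, matrix-secreting myofibroblasts, the main source of fibrillar collagen in toxic injury, and they lose part of their resting programme as they do so. Carbon tetrachloride is made toxic by cytochrome P450 enzymes in the hepatocytes around the central vein, and repeated doses are a standard model of liver fibrosis.

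Values are normalized counts: estimated reads per gene divided by 1 factor per library. Totals were 27200000 to 38800000, and depth was 28000000 to 39600000 estimated reads. Tests are limma's, on log2(normalized count + 1), in 1 model of the 12 libraries over the 20244 genes that reached 1 in 3 or more libraries. All 39 genes were among them. A gene is said to rise or fall where its Benjamini-Hochberg adjusted p over all tested genes is under 0.05. Differences are log2, with limma's standard error (SE) and 3 libraries a group, and this scale understates the change of low genes.

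Markers of the labelled cell type, the hepatocyte, were far above those of stellate cells. The 11 hepatocyte markers found (Alb, Ttr, Cps1 and others) summed to between 2198000 and 4161000 normalized counts, while the 6 quiescent stellate markers summed to between 662.1 and 2402. Fgfr3, the targeted gene, read 735, 888 and 988 in Alb-Cre oil, 523, 650.5 and 1109 in Alb-R3 oil, 951, 706 and 753 in Alb-Cre CCl4 and 478, 372 and 382 in Alb-R3 CCl4. The library labelled Alb-R3 oil replicate 3 was thus the highest of the 12, and the genotype difference passed the test neither after oil nor after CCl4 (adjusted p = 1 and 0.252). One library, Alb-R3 CCl4 replicate 1, stood apart: mitochondrially encoded genes took 32.3% of its counts against 6.22% to 12.8% elsewhere, its Kupffer cell and macrophage markers summed to 14010 against 2677 and 3429 in the other 2 of its group, and its leukocyte markers to 4101 against 302 and 580. Calls that changed without Alb-R3 CCl4 replicate 1, and counts that rest on it, are given with and without it, and calls of the 39 genes that were lost with the library labelled Alb-R3 oil replicate 3 left out are named. Library values below follow the order of replicates 1, 2 and 3.

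Of the 10 genes that rose with CCl4 in both genotypes, 7 have a promoter in the RefSeq-based table on GRCm38.p6, as do 27 of all 39. The 250 bases before the annotated start are shown for the quiescent marker and for a fibrillar collagen of those 10, because they differ most plainly in composition (80% and 35.2% G and C). Capitals mark GC boxes (GGGCGG) in Reln and a TATA box (TATAAA) in Col3a1, searched on both strands together with CCAAT. Reln lies on the minus strand (chr5:22344706-22344955) and Col3a1 on the plus strand (chr1:45311288-45311537).
Reln: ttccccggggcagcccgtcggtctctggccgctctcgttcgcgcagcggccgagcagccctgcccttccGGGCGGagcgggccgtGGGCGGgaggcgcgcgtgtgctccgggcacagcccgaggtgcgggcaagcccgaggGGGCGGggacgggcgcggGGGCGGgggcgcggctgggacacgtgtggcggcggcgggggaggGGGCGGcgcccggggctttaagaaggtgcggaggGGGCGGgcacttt
Col3a1: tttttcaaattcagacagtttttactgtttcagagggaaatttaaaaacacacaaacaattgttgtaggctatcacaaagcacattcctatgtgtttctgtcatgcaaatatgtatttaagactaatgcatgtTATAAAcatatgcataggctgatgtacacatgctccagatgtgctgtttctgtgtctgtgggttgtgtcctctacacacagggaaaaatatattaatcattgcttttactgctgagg
The Reln window holds 6 GC boxes, the nearest 13 bases before the start, and no TATAAA. The Col3a1 window holds 1 TATAAA, 117 bases before the start, and no GC box. Among all 32851 windows of this length in the table, 32.7% hold GGGCGG, 12.4% TATAAA and 33.8% CCAAT. Among the 32 windows of the 27 matched genes the shares were 50%, 12.5% and 28.1%. The windows of Pdgfra and Col6a3 hold none of the 3 motifs. These matches describe letters, not bound sites.

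After CCl4 in the Alb-Cre controls, 10 of the 39 genes rose and 0 fell, where 3.46% of all tested genes rose and 0.988% fell. They were Col1a1, Col3a1, Col5a2, Col4a1 and Col6a3 among the collagens, the actin Acta2, the collagen-binding protein Sparc, the lysyl oxidase Loxl2, the growth factor receptor Pdgfra, and 1 quiescent marker, Reln. The median difference of the 39 was 0.91 (0.89 without Acta2, at 0 in each Alb-Cre oil library), against 0.0171 over all tested genes. In the Alb-R3 libraries 24 rose and 1, Col18a1, fell, where 10.9% of all genes rose and 6.92% fell; the median was 1.90 (1.81 without Lox, at 0 in each Alb-R3 oil library). Each of the 10 genes that rose in Alb-Cre also rose in Alb-R3, that is 10 of 10 and 10 of 24. Without Alb-R3 CCl4 replicate 1, 15 rose in Alb-Cre (background 4.93%), and in Alb-R3 32 rose and 1 fell (background 9.84% and 6.21%). The fit pools its spread over the groups, so a library of 1 genotype can alter the count in the other. The filter also kept 19818 genes without Alb-R3 CCl4 replicate 1, against 20244 with it. The part of each in the changed counts was not tested.

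**Figure D1:**
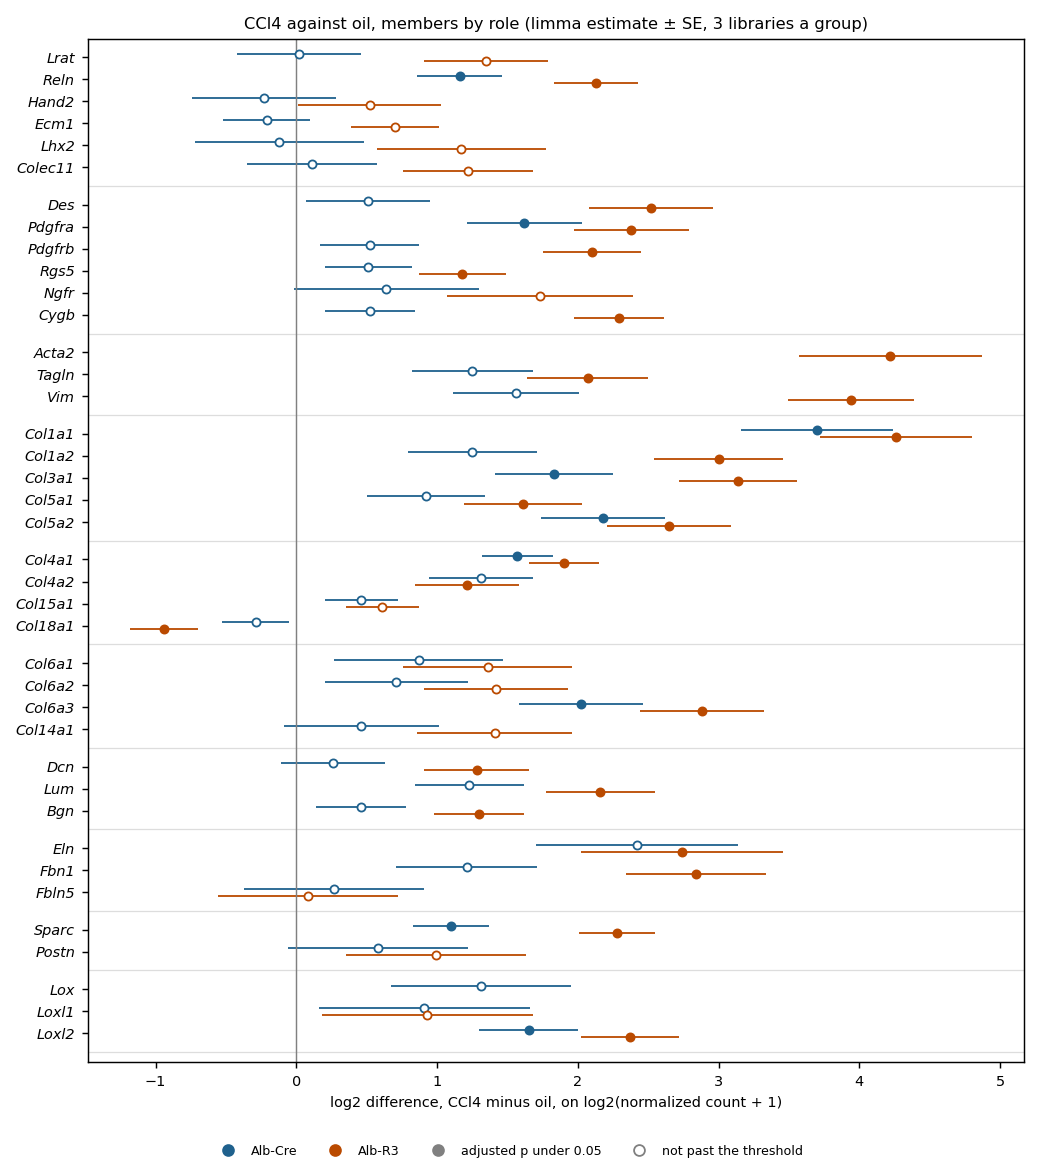
CCl4 against oil for each gene in Alb-Cre (blue) and Alb-R3 (orange), as limma's log2 difference with its SE, 3 libraries a group; filled points passed the test. Points are left out where a group is listed at 0 (Acta2 in Alb-Cre, Lox in Alb-R3). The 5 fibrillar collagens lie between 0.92 and 4.26, whereas 5 of the 6 quiescent markers lie between -0.23 and 0.11 in Alb-Cre, and Col18a1 lies below 0 in both genotypes.

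The genotypes were set against each other in the same model. After oil, 35 of the 39 estimates were below 0 in Alb-R3 against Alb-Cre, with a median of -0.90, against 0.004 over all tested genes. In 26 of the 39 all Alb-R3 values were lower than any Alb-Cre value and in 0 all were higher, where 5.63% of all tested genes lay below in this way. None passed limma's test (0 of 39, lowest adjusted p 0.169), and of all genes 0.207% passed in either direction. An unadjusted p under 0.05 was found for 19 of the 39 and for 1314 of all 20244 tested genes. Without Alb-R3 CCl4 replicate 1, which is not among these 6 libraries but enters the estimate of spread, 7 were lower (Colec11, Ngfr, Col3a1, Col14a1, Dcn, Bgn and Sparc), with a background of 0.318%. With the library labelled Alb-R3 oil replicate 3 left out the median was -0.75 and 0 passed (16 at an unadjusted p under 0.05).

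Summed endothelial, macrophage and leukocyte markers were also low in the Alb-R3 oil libraries, while summed cholangiocyte and portal fibroblast markers were not. The 12 endothelial markers summed to 3741, 3582 and 5140 in Alb-Cre oil and 2041, 2132 and 2565 in Alb-R3 oil, and the 12 Kupffer cell and macrophage markers to 2841, 1426 and 2422 and to 915, 1098 and 1358. All 24 of their estimates were below 0, with medians of -1.05 and -1.03, and 0 of each list passed (4 endothelial and 0 Kupffer markers without Alb-R3 CCl4 replicate 1). None of these 24 markers was at 0 in any library. The 10 leukocyte markers summed to 353, 205 and 272 in Alb-Cre oil and to 151, 149.6 and 165 in Alb-R3 oil. Lyz2 alone made 315, 170 and 206.5 of these sums in Alb-Cre oil and 129, 123.5 and 125 in Alb-R3 oil. Of the 9 leukocyte markers tested, 8 estimates were below 0 and 1 above, with a median of -0.60. By limma 0 passed, and 0 had an unadjusted p under 0.05. The 8 cholangiocyte markers summed to 698, 663 and 862 in Alb-Cre oil and to 893, 826 and 861 in Alb-R3 oil, which overlap. The 12 portal fibroblast and mesothelial markers summed to 535, 472 and 454 in Alb-R3 oil against 335, 251 and 434 in Alb-Cre oil. Of these sums Pi16 alone made 412, 320 and 368 against 202, 111.5 and 334. Among the 10 tested, 4 estimates were above 0 and 6 below, with a median of -0.09, and 0 passed. In bulk RNA, fewer cells of a type and less RNA per cell cannot be told apart, and the part of these other cells in the stellate gene differences was not tested.

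After CCl4 the median difference of the 39 between the genotypes was 0.08 (-0.06 with quantile normalization), and 0 passed, where 0.173% of all genes passed. By limma 2 of the 39 and 1573 of all 20244 tested genes had an unadjusted p under 0.05. The libraries did not overlap in 2 genes higher and 1 lower in Alb-R3, where 12.0% of all genes did not overlap in either direction. The interaction, the CCl4 response of Alb-R3 minus that of Alb-Cre, had a median of 0.82, with 35 of 39 estimates above 0. It passed for 0 of the 39 (9 at an unadjusted p under 0.05, as were 1516 of all 20244) and for 0 (0%) of all genes. Without Alb-R3 CCl4 replicate 1 it also passed for 0, with 23 at an unadjusted p under 0.05. The larger count of rising genes in Alb-R3 is therefore not shown to be a different response, and both responses are read against oil groups that themselves stood at different levels.

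**Figure D2:**
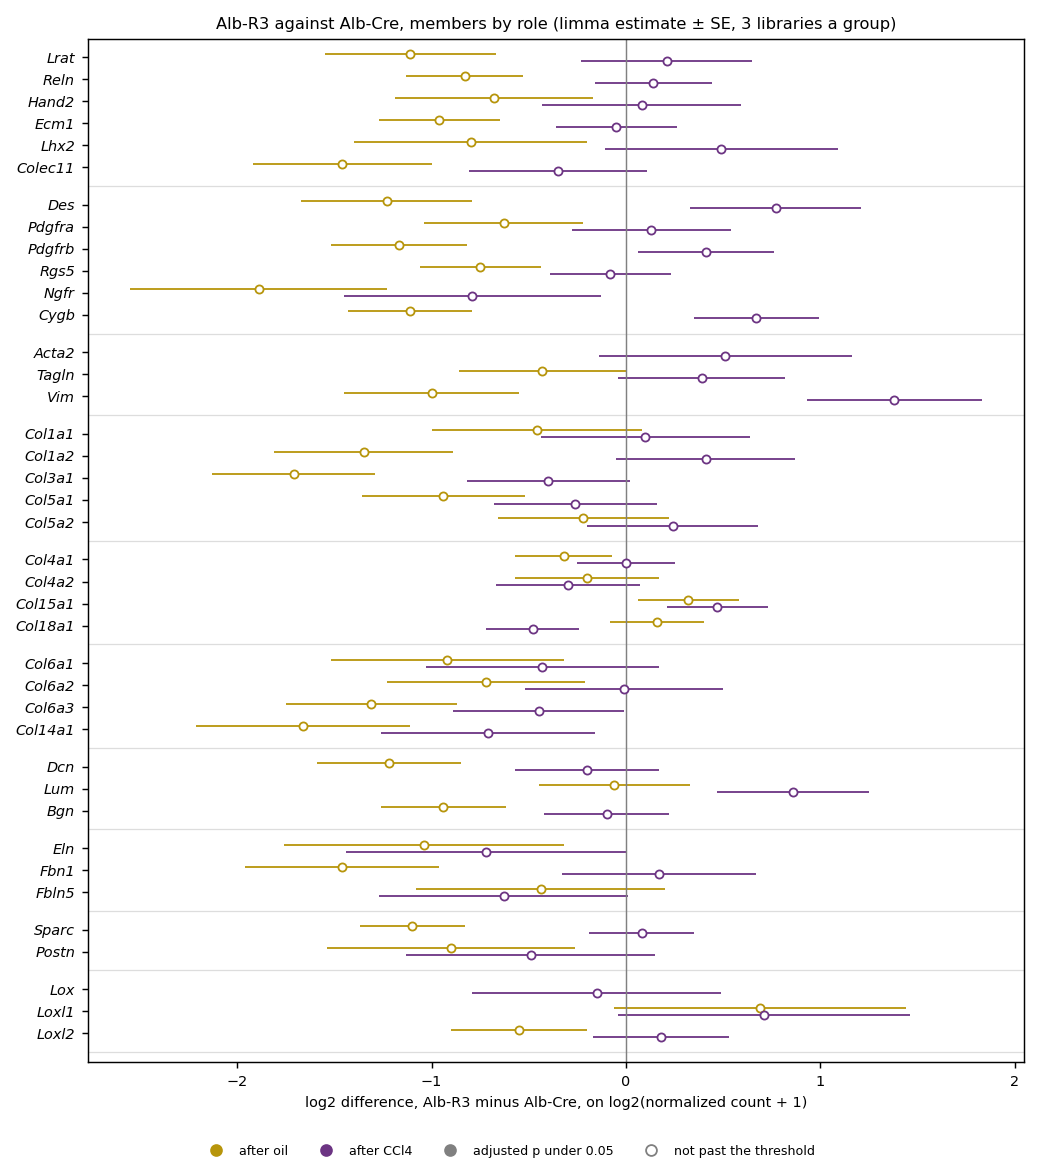
Alb-R3 against Alb-Cre for each gene after oil (ochre) and after CCl4 (purple), as limma's log2 difference with its SE, 3 libraries a group; Acta2 and Lox are left out after oil, where a group is listed at 0. No point is filled, since none passed; after oil the points lie mostly to the left of 0 (35 of 39 estimates), and after CCl4 they scatter around it.

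The quiescent markers had the lowest median CCl4 difference of the 10 role lists in Alb-Cre. Lrat makes the retinyl esters that stellate cells store, Reln encodes the secreted glycoprotein reelin, Hand2 and Lhx2 are transcription factors, Ecm1 is a secreted matrix protein and Colec11 a soluble lectin. In Alb-Cre, 1 of 6 rose, and the median difference was -0.05. In Alb-R3 the same 1 of 6 rose, with a median of 1.19, and without Alb-R3 CCl4 replicate 1 it was 4 of 6 with a median of 1.73.

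Reln read 273, 289.8 and 205 in Alb-Cre oil, 116, 198 and 124 in Alb-R3 oil, 679.6, 453 and 595 in Alb-Cre CCl4 and 387, 814 and 782 in Alb-R3 CCl4. All 3 Alb-Cre CCl4 values lay above the 3 oil values, and so did the Alb-R3 ones. It rose by 1.16 ± 0.30 in Alb-Cre (adjusted p = 0.0429) and by 2.13 ± 0.30 in Alb-R3 (adjusted p = 0.00038). The Alb-Cre call was kept in 4 of 12 fits that left out 1 library. It was lost without any 1 of the 6 Alb-Cre libraries (highest adjusted p 0.149) and without replicate 1 or 3 of the libraries labelled Alb-R3 oil.

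Lrat read 75.6, 49.6 and 128 in Alb-Cre oil, 32.8, 43.1 and 31.9 in Alb-R3 oil, 75.8, 60.6 and 108 in Alb-Cre CCl4 and 47.5, 99.6 and 164 in Alb-R3 CCl4. The Alb-Cre groups overlapped, with a difference of 0.02 ± 0.44. In Alb-R3 the difference was 1.35 ± 0.44 and just missed the threshold (adjusted p = 0.0529); it passed without Alb-R3 CCl4 replicate 1, the lowest of its group, at 1.82 (adjusted p = 0.00782). Colec11 read 224, 184 and 206 in Alb-Cre oil, 50.3, 73.7 and 108 in Alb-R3 oil, 206, 166 and 313 in Alb-Cre CCl4 and 68.1, 263 and 285 in Alb-R3 CCl4. Its Alb-R3 oil values lay below all 3 Alb-Cre oil values, and Alb-R3 CCl4 replicate 1 lay among them. The CCl4 difference was 0.11 ± 0.46 in Alb-Cre and 1.22 ± 0.46 in Alb-R3 (adjusted p = 0.09), and the latter passed without that library at 1.88 (adjusted p = 0.00136).

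Ecm1 read 1098, 741 and 1382 in Alb-Cre oil, 449.7, 519 and 649 in Alb-R3 oil, 901, 632 and 1268 in Alb-Cre CCl4 and 562, 1041 and 1109 in Alb-R3 CCl4. After oil the Alb-R3 values were all below those of Alb-Cre, while the CCl4 groups overlapped. Its Alb-R3 difference with CCl4 was 0.70 (adjusted p = 0.146) and passed without Alb-R3 CCl4 replicate 1 at 1.01 (adjusted p = 0.0304). By FPKM, which also divides by gene length, Ecm1 was at 31.8 ± 9.21 (SD, n = 3) in Alb-Cre oil, higher than any other of the 39 but Col18a1. The transcription factors were low. Hand2 read 25.2, 14.6 and 19.1 in Alb-Cre oil, 7.66, 17 and 11.8 in Alb-R3 oil, 21.4, 8.01 and 24.1 in Alb-Cre CCl4 and 11.3, 17.6 and 24.8 in Alb-R3 CCl4. Lhx2 read 12.6, 15.6 and 21.5 in Alb-Cre oil, 5.47, 20.4 and 5.91 in Alb-R3 oil, 16.5, 8.01 and 24.1 in Alb-Cre CCl4 and 10.3, 24.9 and 36.1 in Alb-R3 CCl4. Both overlapped in all pairs of groups compared, and neither passed in any comparison (lowest adjusted p 0.214, for Lhx2 in Alb-R3).

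**Figure D3:**
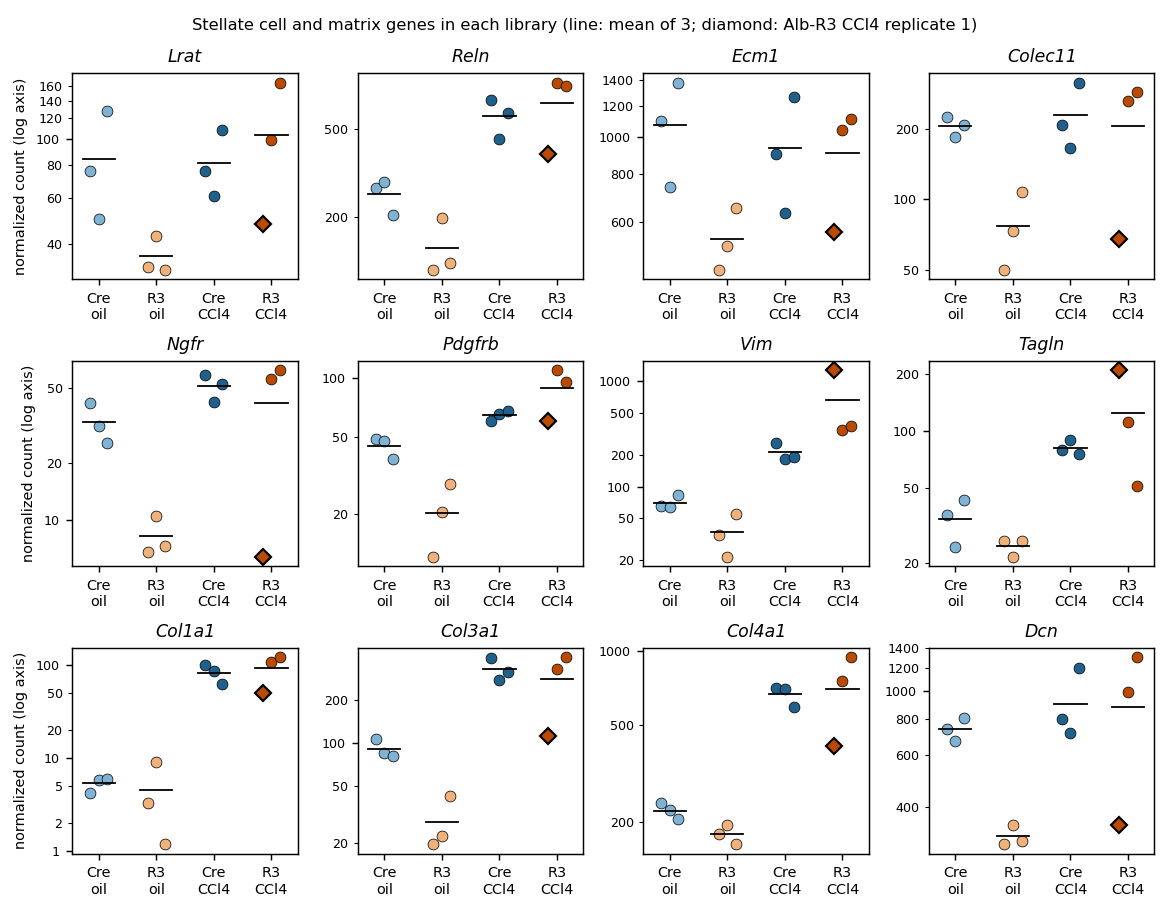
Normalized counts (log axis) of 12 genes in each library by group; lines are means of 3 and the diamond is Alb-R3 CCl4 replicate 1. For Ngfr this library is at 6.32 beside 56.1 and 62.7, and for Vim it is at 1271 beside 343.5 and 371; Col1a1 separates CCl4 from oil in all 12 libraries.

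Of the 6 other stellate and pericyte markers, 1 rose in Alb-Cre (Pdgfra) and 5 in Alb-R3 (Des, Pdgfra, Pdgfrb, Rgs5 and Cygb). In all 6 the Alb-R3 oil libraries stayed below the lowest Alb-Cre oil library, with a median of -1.14 and 0 passing. Pdgfra and Pdgfrb encode receptors for platelet-derived growth factors, the latter a main mitogen receptor of activated stellate cells. Pdgfra read 9.45, 10.7 and 10.7 in Alb-Cre oil, 6.57, 7.94 and 4.73 in Alb-R3 oil, 36.95, 26.4 and 39.1 in Alb-Cre CCl4 and 23.7, 40.3 and 52.1 in Alb-R3 CCl4. Pdgfrb read 48.3, 47.6 and 38.2 in Alb-Cre oil, 12.04, 20.4 and 28.4 in Alb-R3 oil, 60.3, 65.2 and 67.3 in Alb-Cre CCl4 and 59.8, 109.9 and 95.4 in Alb-R3 CCl4. Both were higher in each CCl4 library than in any oil library of the same genotype. Pdgfra rose by 1.62 ± 0.41 in Alb-Cre (adjusted p = 0.0386) and by 2.38 ± 0.41 in Alb-R3, while Pdgfrb rose by 2.10 ± 0.35 in Alb-R3. In Alb-Cre the Pdgfrb difference was 0.52 ± 0.35, and the interaction did not pass (adjusted p = 0.463). The Pdgfra call in Alb-Cre was lost without any 1 of the 6 Alb-Cre libraries, without Alb-R3 oil replicate 1 and without Alb-R3 CCl4 replicate 2.

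Cygb encodes cytoglobin, a globin used as a stellate cell marker, and Des the intermediate filament desmin. Cygb read 58.8, 31.1 and 59.7 in Alb-Cre oil, 26.3, 18.1 and 21.3 in Alb-R3 oil, 58.3, 67.5 and 83.1 in Alb-Cre CCl4 and 89.8, 123 and 120.2 in Alb-R3 CCl4. Des read 30.4, 16.5 and 28.6 in Alb-Cre oil, 7.66, 7.93 and 15.4 in Alb-R3 oil, 29.2, 61.8 and 24.1 in Alb-Cre CCl4 and 69.1, 60.8 and 53.7 in Alb-R3 CCl4. Their Alb-R3 oil values were the lowest of the 4 groups and their Alb-R3 CCl4 values, replicate 1 included, among the highest. The Alb-R3 rises were 2.29 ± 0.32 (adjusted p = 0.000415) and 2.52 ± 0.44 (adjusted p = 0.00179), against 0.52 ± 0.32 and 0.51 ± 0.44 in Alb-Cre. Rgs5, a regulator of G protein signalling found in pericytes, ranged from 128.1 to 514.5 and rose by 1.18 ± 0.31 in Alb-R3 (adjusted p = 0.0183), but not past the threshold without any 1 of Alb-R3 oil replicates 1 and 2 and Alb-R3 CCl4 replicates 2 and 3. Ngfr, the low-affinity neurotrophin receptor, ranged from 6.32 to 62.7. Its lowest value was that of Alb-R3 CCl4 replicate 1, and without it the Alb-R3 difference went from 1.73 (adjusted p = 0.0886) to 2.75 (adjusted p = 0.000264).

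The 3 activation and contractile genes were higher in every CCl4 library than in any oil library of the same genotype. Acta2 encodes smooth muscle actin, the usual mark of the myofibroblast, Tagln the actin-binding protein transgelin and Vim the intermediate filament vimentin, which many non-epithelial cells share. Acta2 read 0 in all 3 libraries of Alb-Cre oil, 1.09, 0 and 1.18 in Alb-R3 oil, 17.5, 50.3 and 9.97 in Alb-Cre CCl4 and 65.01, 20.5 and 20.04 in Alb-R3 CCl4. It passed in Alb-Cre (adjusted p = 0.000972), where no fold can be given against a group listed at 0, and rose by 4.22 ± 0.65 in Alb-R3 (adjusted p = 0.000786). Both calls held in all 12 fits with 1 library left out. The smooth muscle markers Cnn1 and Actg2 were listed at 0 in all 12 libraries, and Myh11 and Synpo2 passed in no comparison.

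Tagln read 35.7, 24.3 and 42.96 in Alb-Cre oil, 26.3, 21.5 and 26.02 in Alb-R3 oil, 78.8, 89.2 and 75.6 in Alb-Cre CCl4 and 209, 111 and 51.3 in Alb-R3 CCl4. Vim read 65.1, 64.2 and 82.3 in Alb-Cre oil, 35.02, 21.5 and 54.4 in Alb-R3 oil, 259.6, 183 and 190.3 in Alb-Cre CCl4 and 1271, 344 and 371 in Alb-R3 CCl4. Alb-R3 CCl4 replicate 1 was the highest of the 12 for all 3 activation genes. In Alb-R3, Vim rose by 3.94 ± 0.45 (3.33 without that library; adjusted p = 7.36e-05 and 2e-05) and Tagln by 2.07 ± 0.43 (1.59 without it). In Alb-Cre the differences were 1.56 ± 0.45 and 1.25 ± 0.43, with adjusted p = 0.0718 and 0.134, and both passed once that library was left out (adjusted p = 0.00563 and 0.0393). Vim also had the lowest unadjusted p of the 39 genes between the genotypes after CCl4 (1.38 ± 0.45, unadjusted p = 0.00825, adjusted p = 0.413), a difference that was 0.77 without the library. Kupffer, macrophage and leukocyte marker sums were highest in that same library, and their part in the Vim and Tagln values was not tested.

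Fibrillar collagens form the rope-like fibres of scar. Col1a1 and Col1a2 encode the chains of type I collagen, Col3a1 that of type III, and Col5a1 and Col5a2 chains of type V, which starts fibres. For all 5 genes each CCl4 library lay above each oil library of its genotype; 3 of 5 rose in Alb-Cre and 5 of 5 in Alb-R3, with medians of 1.83 and 3.00. Over all 39 genes such separation was seen in 22 in Alb-Cre and 26 in Alb-R3, where 13.3% and 18.1% of all tested genes showed it.

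Col1a1 read 4.2, 5.83 and 5.97 in Alb-Cre oil, 3.28, 9.07 and 1.18 in Alb-R3 oil, 98.2, 85.8 and 61.5 in Alb-Cre CCl4 and 49.5, 106 and 120.2 in Alb-R3 CCl4. Its Alb-Cre mean went from 5.33 ± 0.984 to 81.8 ± 18.7 (SD, n = 3). The rise was 3.70 ± 0.54 in Alb-Cre (adjusted p = 0.000978) and 4.26 ± 0.54 in Alb-R3 (adjusted p = 0.000185), and it passed in all 12 fits that left out a library. Col1a2 read 39.9, 35.97 and 57.3 in Alb-Cre oil, 7.66, 28.3 and 20.1 in Alb-R3 oil, 122, 78.9 and 118 in Alb-Cre CCl4 and 82.5, 158 and 205 in Alb-R3 CCl4. Its Alb-R3 rise was 3.00 ± 0.46 and its Alb-Cre difference 1.25 ± 0.46 (adjusted p = 0.168), so the partner chain of Col1a1 passed in Alb-R3 but not in Alb-Cre, with an interaction of 1.75 ± 0.65 that did not pass (adjusted p = 0.537). After oil Col1a2 was the higher of this pair by FPKM, at 0.550 ± 0.136 (SD, n = 3) against 0.0851 ± 0.0161 in Alb-Cre, and after CCl4 they were at 1.57 ± 0.425 and 1.53 ± 0.346.

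Col3a1 read 106, 84.6 and 81.2 in Alb-Cre oil, 19.7, 22.7 and 42.6 in Alb-R3 oil, 389.9, 276 and 309 in Alb-Cre CCl4 and 111, 326 and 394 in Alb-R3 CCl4. The Alb-R3 oil values were below all Alb-Cre oil values, by -1.71 ± 0.42 (adjusted p = 0.174, and 0.0142 without Alb-R3 CCl4 replicate 1). Col3a1 rose by 1.83 ± 0.42 in Alb-Cre (adjusted p = 0.0236, lost without any 1 of the 6 Alb-Cre libraries) and by 3.14 ± 0.42 in Alb-R3. Its neighbour Col5a2 lies 24.6 kb away on chromosome 1, on the opposite strand and tail to tail. Col5a2 read 6.3, 15.6 and 8.35 in Alb-Cre oil, 7.66, 7.93 and 8.28 in Alb-R3 oil, 53.5, 37.7 and 49.04 in Alb-Cre CCl4 and 33.01, 54.9 and 91.4 in Alb-R3 CCl4. It had nearly equal oil levels in the genotypes (-0.22 ± 0.44), unlike Col3a1, and rose by 2.18 ± 0.44 and 2.65 ± 0.44; in Alb-Cre it no longer passed without oil replicate 1, CCl4 replicate 1 or CCl4 replicate 3 of that genotype. Col5a1, which ranged from 19.7 to 122.9, rose in Alb-R3 by 1.61 ± 0.42 and had 0.92 ± 0.42 in Alb-Cre (adjusted p = 0.0184 and 0.28). The Alb-R3 call was lost without Alb-R3 oil replicate 1, Alb-R3 CCl4 replicate 2 or Alb-R3 CCl4 replicate 3.

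Basement membrane collagens did not move as 1 group. Col4a1 and Col4a2 encode the paired chains of the type IV sheet, Col15a1 a collagen of vessel walls and Col18a1 the precursor of endostatin, which hepatocytes are known to make. Col4a1 read 238, 225 and 205 in Alb-Cre oil, 178, 194 and 162 in Alb-R3 oil, 708, 701 and 589 in Alb-Cre CCl4 and 411, 753 and 946 in Alb-R3 CCl4. Col4a2 read 219, 191 and 177 in Alb-Cre oil, 149.9, 252 and 128 in Alb-R3 oil, 532, 598 and 356 in Alb-Cre CCl4 and 207, 455 and 639 in Alb-R3 CCl4. The genes sit head to head on chromosome 8 with 22 overlapping bases on opposite strands, and the sources used here do not say whether the libraries kept strand. Col4a1 rose by 1.57 ± 0.25 (adjusted p = 0.00177) and 1.90 ± 0.25 (adjusted p = 0.000237), with every leave-out keeping both calls. Col4a2 had 1.31 ± 0.37 in Alb-Cre (adjusted p = 0.0648, and 0.00788 without Alb-R3 CCl4 replicate 1) and rose by 1.21 ± 0.37 in Alb-R3 (adjusted p = 0.0368). That Alb-R3 call was lost without any 1 of Alb-R3 oil replicate 1, Alb-R3 oil replicate 3, Alb-Cre CCl4 replicate 1, Alb-R3 CCl4 replicate 2 and Alb-R3 CCl4 replicate 3.

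Col18a1 read 34220, 28450 and 25680 in Alb-Cre oil, 30950, 36930 and 30610 in Alb-R3 oil, 24230, 26270 and 21270 in Alb-Cre CCl4 and 12620, 21120 and 18660 in Alb-R3 CCl4. It was the most abundant of the 39 per length, at 248 ± 36.0 FPKM (SD, n = 3) in Alb-Cre oil, and the 1 gene of the 39 that fell: all 3 Alb-R3 CCl4 values were below the 3 Alb-R3 oil values, by -0.94 ± 0.24 (adjusted p = 0.0173; -0.72 without Alb-R3 CCl4 replicate 1, adjusted p = 0.0334). The call was lost without Alb-R3 oil replicate 2 (adjusted p = 0.0695), in FPKM (-0.67), after quantile normalization (-0.42) and with only the 6 Alb-R3 libraries in the fit (adjusted p = 0.0687). In Alb-Cre the difference was -0.29 ± 0.24 (adjusted p = 0.611). Col15a1 read 163, 168 and 251 in Alb-Cre oil, 270.3, 234 and 212 in Alb-R3 oil, 257, 373 and 188 in Alb-Cre CCl4 and 425, 296 and 379.9 in Alb-R3 CCl4. It passed in no comparison, with 0.46 ± 0.26 and 0.61 ± 0.26 with CCl4, and it was 1 of the 4 genes with an estimate above 0 between the genotypes after oil.

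Collagen VI makes beaded filaments around cells and collagen XIV coats collagen fibres. Of the 4 genes, Col6a3 alone passed, in both genotypes. Col6a3 read 11.6, 11.7 and 10.7 in Alb-Cre oil, 4.38, 2.27 and 5.91 in Alb-R3 oil, 66.1, 46.9 and 37.4 in Alb-Cre CCl4 and 23.7, 33.7 and 55.3 in Alb-R3 CCl4. It rose by 2.02 ± 0.44 in Alb-Cre (adjusted p = 0.0186) and by 2.88 ± 0.44 in Alb-R3 (adjusted p = 0.000786). The Alb-Cre call was lost without any 1 of the Alb-Cre libraries but CCl4 replicate 3.

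Col6a1 read 21, 21.4 and 38.2 in Alb-Cre oil, 8.75, 17 and 15.4 in Alb-R3 oil, 44.7, 37.7 and 65.7 in Alb-Cre CCl4 and 10.3, 62.99 and 65.7 in Alb-R3 CCl4. Col6a2 read 19.9, 11.7 and 22.7 in Alb-Cre oil, 10.9, 9.07 and 10.6 in Alb-R3 oil, 30.1, 27.4 and 29.9 in Alb-Cre CCl4 and 11.3, 52.01 and 40.1 in Alb-R3 CCl4. These lie 85.2 kb apart on chromosome 10, and both had a low value in Alb-R3 CCl4 replicate 1, close to those of the Alb-R3 oil libraries. Their Alb-R3 differences were 1.36 ± 0.60 and 1.42 ± 0.51 (adjusted p = 0.145 and 0.0713) and passed without that library at 2.20 and 2.06 (adjusted p = 0.00334 and 0.00363). Col14a1 read 167, 192 and 144 in Alb-Cre oil, 36.1, 52.1 and 74.5 in Alb-R3 oil, 259.6, 151 and 309 in Alb-Cre CCl4 and 43.3, 237 and 265 in Alb-R3 CCl4. It showed the same split within the Alb-R3 CCl4 group, with a difference of 1.41 ± 0.55 that became 2.25 (adjusted p = 0.000554). After oil all 4 genes were lower in the 3 Alb-R3 libraries than in the 3 Alb-Cre libraries, with a median of -1.11.

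Decorin (Dcn), lumican (Lum) and biglycan (Bgn) are small leucine-rich proteoglycans that bind collagen and space its fibrils. In Alb-Cre 0 of 3 passed (1 at an unadjusted p under 0.05), and in Alb-R3 3 of 3 rose; without Alb-R3 CCl4 replicate 1, 1 of 3 (Lum) passed in Alb-Cre. Dcn read 736, 674 and 804 in Alb-Cre oil, 297, 347 and 305 in Alb-R3 oil, 797, 716 and 1197 in Alb-Cre CCl4 and 347, 989.6 and 1304 in Alb-R3 CCl4. Bgn read 529, 445 and 674 in Alb-Cre oil, 254, 256 and 347 in Alb-R3 oil, 782, 633 and 836 in Alb-Cre CCl4 and 359.8, 935 and 1004 in Alb-R3 CCl4. Their Alb-R3 oil values were below all Alb-Cre oil values, by -1.22 ± 0.37 and -0.94 ± 0.32 (adjusted p = 0.368 and 0.466, and 0.0104 and 0.0452 without Alb-R3 CCl4 replicate 1). With CCl4 they rose in Alb-R3 by 1.28 ± 0.37 and 1.30 ± 0.32 (adjusted p = 0.03 and 0.0146) to levels that overlapped those of Alb-Cre. The Dcn call was lost without any 1 of the 3 Alb-R3 oil libraries or without Alb-R3 CCl4 replicate 2 or 3, and the Bgn call without Alb-R3 oil replicate 1 or 2 or Alb-R3 CCl4 replicate 2 or 3.

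Lum read 30.4, 18.5 and 33.4 in Alb-Cre oil, 25.2, 30.6 and 21.3 in Alb-R3 oil, 68.1, 50.3 and 76.5 in Alb-Cre CCl4 and 74.3, 108 and 199.6 in Alb-R3 CCl4. It lies 47 kb from Dcn on chromosome 10 but differed from it in pattern: the oil groups overlapped (-0.06 ± 0.39), and the CCl4 difference was 1.23 ± 0.39 in Alb-Cre (adjusted p = 0.1, and 0.0448 without Alb-R3 CCl4 replicate 1) and 2.16 ± 0.39 in Alb-R3 (adjusted p = 0.00215). Between the genotypes after CCl4 Lum was 0.86 ± 0.39 higher in Alb-R3 at an unadjusted p = 0.0432 (adjusted p = 0.623).

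Elastin (Eln), fibrillin 1 (Fbn1) and fibulin 5 (Fbln5) build elastic fibres, and all 3 were low in these libraries. Eln read 3.52, 4.98 and 1.19 in Alb-Cre oil, 2.19, 1.13 and 0 in Alb-R3 oil, 28.3, 13.7 and 19.9 in Alb-Cre CCl4 and 3.1, 23.4 and 19.2 in Alb-R3 CCl4. Fbn1 read 13.7, 11.7 and 14.3 in Alb-Cre oil, 4.38, 4.53 and 3.55 in Alb-R3 oil, 41.8, 24.02 and 31.6 in Alb-Cre CCl4 and 15.5, 41.02 and 71.3 in Alb-R3 CCl4. In Alb-R3 they rose by 2.74 ± 0.72 (adjusted p = 0.0192) and 2.84 ± 0.50 (adjusted p = 0.00208), and in Alb-Cre the differences of 2.42 ± 0.72 and 1.21 ± 0.50 did not pass (adjusted p = 0.084 and 0.234), although the groups did not overlap. Eln passed in Alb-Cre without Alb-R3 CCl4 replicate 1 (adjusted p = 0.0194), and its Alb-R3 difference was 3.55. The Eln call in Alb-R3 was lost without Alb-R3 CCl4 replicate 2 or 3 or with the library labelled Alb-R3 oil replicate 3 left out, the 1 library of the 12 listed at 0. Fbln5 read 6.3, 5.83 and 7.16 in Alb-Cre oil, 3.28, 5.67 and 4.73 in Alb-R3 oil, 12.6, 4.58 and 8.31 in Alb-Cre CCl4 and 1.03, 5.86 and 12.8 in Alb-R3 CCl4. It passed nowhere, and its 3 Alb-R3 CCl4 values spanned the whole range of the 12.

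Sparc is a collagen-binding glycoprotein and Postn encodes periostin, both matricellular proteins of remodelling tissue. Sparc read 526, 417 and 539 in Alb-Cre oil, 218, 213 and 257 in Alb-R3 oil, 1086, 909 and 1191 in Alb-Cre CCl4 and 653, 1452 and 1466 in Alb-R3 CCl4. Its 4 groups fell in a clear order, with Alb-R3 oil lowest, Alb-Cre oil next and every CCl4 library above both. It rose by 1.10 ± 0.27 in Alb-Cre (adjusted p = 0.0311, lost without any 1 of the 6 Alb-Cre libraries) and by 2.28 ± 0.27 in Alb-R3 (adjusted p = 9.19e-05), and was lower in Alb-R3 after oil by -1.10 ± 0.27 (adjusted p = 0.169, and 0.00517 without Alb-R3 CCl4 replicate 1). Its interaction of 1.18 ± 0.38 did not pass (adjusted p = 0.472, and 0.0691 without that library). Postn read 45.1, 30.1 and 41.8 in Alb-Cre oil, 24.1, 23.8 and 14.2 in Alb-R3 oil, 87.5, 25.2 and 88.1 in Alb-Cre CCl4 and 13.4, 49.8 and 101 in Alb-R3 CCl4. The spread within each CCl4 group was wide, and it passed in no comparison with all libraries (0.58 ± 0.64 and 0.99 ± 0.64 with CCl4). Without Alb-R3 CCl4 replicate 1, its lowest value, the Alb-R3 difference passed at 1.77 (adjusted p = 0.037).

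Lysyl oxidases crosslink collagen and elastin. Loxl2 read 20.4, 31.04 and 19.7 in Alb-Cre oil, 12.1, 17.2 and 18.1 in Alb-R3 oil, 94.7, 69.5 and 63.8 in Alb-Cre CCl4 and 71.8, 67.4 and 127 in Alb-R3 CCl4. Every CCl4 library lay above every oil library, and Loxl2 rose by 1.65 ± 0.35 in Alb-Cre (adjusted p = 0.0161) and 2.37 ± 0.35 in Alb-R3 (adjusted p = 0.000614). In Alb-Cre it no longer passed without oil replicate 1 or 3 or CCl4 replicate 1 or 2 of that genotype. Lox and Loxl1 were near the floor, with at most 5.72 and 10.3 normalized counts in any library and 5 and 1 of the 12 listed at 0, and neither passed in any comparison (lowest adjusted p 0.0581). By FPKM, Lox was the lowest of the 39 in Alb-Cre CCl4, at 0.0243 ± 0.0133 (SD, n = 3).

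The matrix genes were then set against the quiescent markers of the same library, as a difference of mean log2(normalized count + 1). This largely cancels a factor shared by the 2 lists in a library. It does so less for genes near the floor, such as Acta2, Lox, Eln and Fbln5 after oil, because 1 is added to each value. The same holds after oil for 2 of the fibrillar collagens, Col1a1 and Col5a2 (Alb-Cre oil means 5.33 and 10.1 normalized counts). These differences are descriptions with no test. The 5 fibrillar collagens stood at -2.02 ± 0.24 (SD, n = 3) in Alb-Cre oil and at -1.99 ± 0.04 in Alb-R3 oil, a gap smaller than the spread between libraries. After CCl4 they stood at -0.17 ± 0.45 and -0.24 ± 0.05, and the library Alb-R3 CCl4 replicate 1 was at -0.29, beside -0.24 and -0.18 for the other 2. For the 23 matrix genes other than Col18a1 the 4 group means were -1.54, -1.32, -0.41 and -0.57 in the same order. Each of the 6 CCl4 libraries was above each of the 6 oil libraries for both lists.

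The other stellate cell and pericyte markers stood at -1.38 and -1.53 after oil in Alb-Cre and Alb-R3, and at -0.78 and -0.68 after CCl4. The proteoglycans stood at 1.06 and 1.29 after oil and at 1.59 and 1.69 after CCl4. Thus the upward shift against the quiescent markers was not limited to collagens. The same measure was taken for other cell types. Endothelial markers stood at 1.31 and 1.30 after oil and at 1.5 in both genotypes after CCl4. Kupffer cell and macrophage markers stood at 0.14, 0.15 and -0.09 in the first 3 groups and, in Alb-R3 CCl4, at 3.31 in replicate 1 and 0.17 and 0.22 in the others. The activation genes stood at -2.99 and -2.25 after oil and at -0.69 and -0.02 after CCl4, with Alb-R3 CCl4 replicate 1 at 1.93 and the other 2 at -0.66 and -1.31. The quiescent markers themselves averaged 6.74 ± 0.23, 5.77 ± 0.39, 6.86 ± 0.52 and 6.95 ± 0.75.

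**Figure D4:**
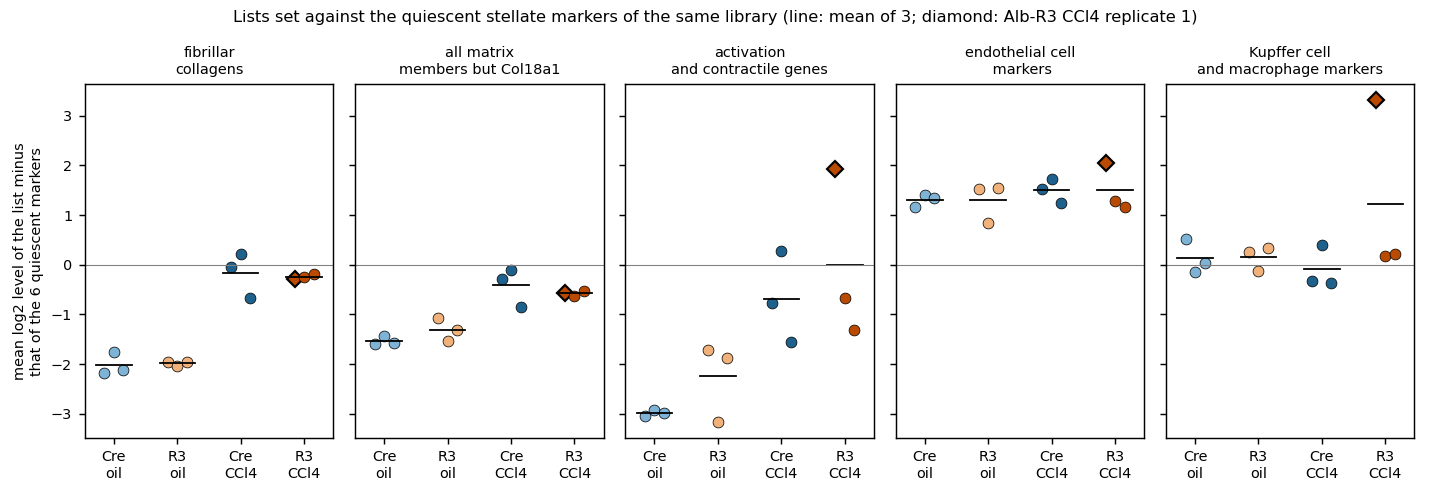
Mean log2 level of a gene list minus that of the 6 quiescent markers in each library, by group; lines are means of 3 and the diamond is Alb-R3 CCl4 replicate 1. Fibrillar collagens move from about -2.02 and -1.99 after oil to -0.17 and -0.24 after CCl4 with that library among the rest, while for Kupffer cell and macrophage markers it stands alone at 3.31.

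The enzymes and chaperones that assemble collagen were followed as a list of 20, of which 19 were tested. In Alb-Cre 2 rose and in Alb-R3 5 rose and 1 fell. Of all tested genes, 3.46% rose in Alb-Cre, and in Alb-R3 10.9% rose and 6.92% fell. Serpinh1, the collagen-specific chaperone, read 65.1, 40.8 and 57.3 in Alb-Cre oil, 19.7, 30.6 and 30.8 in Alb-R3 oil, 144, 152 and 152 in Alb-Cre CCl4 and 169, 248 and 197 in Alb-R3 CCl4, and rose by 1.47 ± 0.27 (adjusted p = 0.00637) and 2.89 ± 0.27 (adjusted p = 2.12e-05). Its 3 Alb-R3 oil values were again below those of Alb-Cre. Crtap, a partner of prolyl 3-hydroxylase, rose by 0.87 ± 0.22 in Alb-Cre. In Alb-R3 the prolyl isomerase Fkbp10 rose by 3.41 ± 0.76 and the procollagen peptidase Adamts2 by 2.21 ± 0.40. In the same genotype Pcolce rose by 1.44 ± 0.36 and P3h1 by 0.99 ± 0.27. Mia3, which loads procollagen into transport carriers in many secretory cells, fell there by 0.77 ± 0.20. Without Alb-R3 CCl4 replicate 1, 4 rose in Alb-Cre (P3h1 and Pcolce besides the former 2), and in Alb-R3 5 rose and 0 fell: P3h1 (0.64, adjusted p = 0.055) and Mia3 (-0.64, adjusted p = 0.053) no longer passed, and P3h2 did. Both of those calls were also lost without Alb-R3 oil replicate 1 or 2, and that of Pcolce without either of these or Alb-R3 CCl4 replicate 2 or 3. The Crtap call was kept in 2 of the 12 fits that left out a library, those without Alb-Cre oil replicate 3 or Alb-R3 CCl4 replicate 1.

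Of 10 further stellate markers, 0 passed in Alb-Cre (4 at an unadjusted p under 0.05) and 4 rose in Alb-R3: Hgf at 2.88 ± 0.62, Nes at 2.35 ± 0.49, Steap4 at 1.32 ± 0.40 and Pth1r at 1.25 ± 0.38. Without Alb-R3 CCl4 replicate 1, where Steap4 had its highest value of the 12 (4616), Steap4 no longer passed (1.07, adjusted p = 0.102), Vipr1 and Tcf21 did, and 5 rose. The Steap4 call was also lost without Alb-R3 oil replicate 1 or 3 or Alb-R3 CCl4 replicate 3, and the Pth1r call in 7 of the 12 fits that left out a library. Of 12 portal fibroblast and mesothelial markers 10 were tested. None rose in either genotype (0 and 0; 0 and 3 at an unadjusted p under 0.05 in either direction), and 1, Pi16, fell in Alb-R3 by 1.51 ± 0.48 (adjusted p = 0.0455). It did not pass without Alb-R3 CCl4 replicate 1, its lowest value at 59.1 (-0.96, adjusted p = 0.137), and 0 of the list then fell; the call was lost in 7 of the 12 such fits. Dpt and Mfap4 were listed at 0 in 11 of 12 libraries. Beside the stellate genes in Alb-R3, 12 of 12 Kupffer cell and macrophage markers, 10 of 12 endothelial markers and 3 of 9 tested leukocyte markers rose (9, 11 and 3 without Alb-R3 CCl4 replicate 1), where in Alb-Cre 0, 0 and 0 passed (2, 0 and 0 at an unadjusted p under 0.05; 1, 0 and 0 passed without that library). The Alb-R3 calls of Clec4f, Cd5l, C1qa, Timd4, Cd163, Oit3, Tie1, Egfl7, Ptprc and Lyz2 were lost without Alb-R3 oil replicate 1. Each of these was also lost without at least 1 other library. Of all tested genes, 10.9% rose and 6.92% fell in Alb-R3, and 3.46% rose in Alb-Cre. The limma interaction passed for 0 genes of each of these lists (lowest adjusted p 0.364, 0.364 and 0.515). A different response of these markers is therefore not shown. Endothelial sums were 4107 to 5763 in Alb-Cre CCl4 and 5278 to 5833 in Alb-R3 CCl4, and Kupffer sums 1604 to 2069 and 2677 to 14010. Their part in the stellate results was not tested.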

How the data were processed

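The comparison used 12 RNA-seq libraries of primary hepatocytes. The authors deposited 1 table of 35709 Ensembl genes (35574 matched a symbol) holding normalized counts and FPKM for each library, per the file headers. Per the submitters' processing notes the tools included kallisto 0.44.0 and the build was GRCm38.p6, with no step given for either. The deposited normalized count is a signal, an estimated read number divided by 1 factor per library: 70.2% to 74.4% of low values were whole multiples of 1 read (tolerance 0.02), so no count model was used. The deposited FPKM values served to compare levels between genes and as an alternative. The design had named limma for the case of normalized values, and limma 3.58.1 in R 4.3.3 was used, with a mean-variance trend and 8 residual degrees of freedom; the code was checked on simulated data. Genes were grouped into 10 role lists. All 39 are accounted for: library values are given for the quiescent markers and for up to 4 genes of smallest p in each other list, and the rest as ranges. Members, lists and tests were chosen with earlier results of these data known. Replicate pairs exceeded counting noise in each group. Positions are those of GENCODE M21, 1-based. The alternatives, 22 fits, were quantile normalization, no trend, library weights, no filter, a filter on 6 libraries, pseudocounts of 0.1 and 5, FPKM with a pseudocount of 0.1, the replicate block, only the 6 libraries compared, and each library left out in turn.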

Additional observations from a re-analysis of the deposited data

How the results depend on the processing

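Over 22 alternative fits, the differences of the genes that passed reversed in 0 repeats: 669 still passed and 101 kept their direction but no longer passed. In Alb-Cre the count of 10 became 4 with quantile normalization and 20 with library weights. Of all tested genes 4.45% passed in either direction in the main fit, and 3.86% and 13.4% in these. With 1 library left out the count ran from 3 to 15. It was 3 without replicate 1 of Alb-Cre CCl4 or of Alb-Cre oil (3.37% and 2.89% of all genes). Without Alb-R3 CCl4 replicate 1 it was 15 (7.22%). Acta2, Col1a1 and Col4a1 passed in every fit. In Alb-R3 the count of 25 became 18 with only the 6 libraries compared in the fit and 35 with library weights. Of all tested genes 17.8% passed in the main fit, and 10.1% and 25.3% in these. With 1 library left out the count ran from 19 to 33. It was 19 without Alb-R3 CCl4 replicate 2 or 3 (16.4% and 14.6% of all genes) and 33 without Alb-R3 CCl4 replicate 1 (16.1%). In every fit 18 genes passed. Between the genotypes after oil, 0 became 15 lower with library weights, which gave Alb-R3 CCl4 replicate 1 a weight of 0.217. Of all tested genes 0.207% passed in the main fit and 3.28% with library weights. With 1 library left out the count ran from 0 to 7 (0.52% of all genes at 7). After CCl4 the range was 0 to 0, and for the interaction it was 0 to 0, with 1 gene under library weights (0.227% of all genes). The cause of these shifts was not tested. The replicate numbers did not pair the libraries (correlations of same-numbered libraries from -0.183 to 0.196). With the number as a replicate block 8 genes passed in Alb-Cre (3.52% of all genes) and 26 in Alb-R3 (15.3%). In the other comparisons 0, 0 and 0 passed. The fit to the 6 libraries compared was not run for the interaction, which needs all 12. The tests rest on 3 libraries a group, and Lox, Loxl1, Acta2, Eln, Fbln5 and Col1a1 had means under 10 normalized counts in both oil groups; how much depth adds to the spread was not tested.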

Other observations

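Of the 7 cholangiocyte markers tested, 1 rose with CCl4 in Alb-Cre, Spp1 (osteopontin, also made by other injured liver cells) by 3.26 ± 0.72 (limma adjusted p = 0.0186), and 3 rose in Alb-R3: Spp1 by 5.07 ± 0.72, Muc1 and Krt19, of which the last 2 are listed at 0 in each Alb-R3 oil library. Spp1 read 5354 in Alb-R3 CCl4 replicate 1 beside 1020 and 389.5 in the other 2 of that group, and without that library its Alb-R3 rise was 4.04; Krt19 then no longer passed (adjusted p = 0.0948) and Epcam did (2.07, adjusted p = 0.0423). The Spp1 call in Alb-Cre was lost without oil replicate 3, CCl4 replicate 1 or CCl4 replicate 2 of that genotype, and the Krt19 call also without any 1 of the 3 Alb-R3 oil libraries or Alb-R3 CCl4 replicate 3. Cftr was listed at 0 in 11 of the 12 libraries. Of all tested genes, 3.46% rose and 0.988% fell in Alb-Cre, and 10.9% rose and 6.92% fell in Alb-R3. Of the 11 hepatocyte markers, 0 passed in Alb-Cre (1 at an unadjusted p under 0.05) and 1 fell in Alb-R3, Cyp2e1, the main cytochrome P450 that activates carbon tetrachloride, by 4.43 ± 0.77 (adjusted p = 0.00189). Cyp2e1 fell in both genotypes without Alb-R3 CCl4 replicate 1, by 2.33 in Alb-Cre (adjusted p = 0.000751) and by 3.18 in Alb-R3. Cyp2e1 read 154500, 152800 and 137000 in Alb-Cre oil, 177800, 223300 and 170600 in Alb-R3 oil, 34280, 15990 and 46370 in Alb-Cre CCl4 and 1562, 19460 and 22390 in Alb-R3 CCl4. All 6 CCl4 values lay below the 6 oil values, and Alb-R3 CCl4 replicate 1 was the lowest.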
